A study of Mus musculus with 2 samples.

Results

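A set of 9 genes of the complement system was followed across the cell classes of the adult mouse striatum: *C1qa*, *C1qb*, *C1qc*, *C3*, *C4b*, *C3ar1*, *C5ar1*, *Serping1* and *Itgam*. The genes were taken by symbol, and all 9 were found among the 32285 genes of both libraries. The 2 libraries are replicates of 1 untreated condition. They were made from cells that the labels call glia enriched, from mice given as C57/Bl6J in the strain label and as C57BL/6NTac in the protocol. The labels put their age at 8 to 10 weeks, and the study's methods give a younger, partly overlapping range. No mouse carried a transgene according to the labels, and the number of mice behind each library is not given there. Striatal tissue was digested, filtered and cleared of myelin before droplet capture, so class sizes describe captured cells rather than tissue.

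Complement is a cascade of proteins that marks surfaces for removal. C1q, a hexameric recognition molecule built from the A, B and C chains that *C1qa*, *C1qb* and *C1qc* encode, starts the classical pathway and leads to cleavage of C4 and then C3. Fragments of C3 are bound by complement receptor 3, whose alpha chain CD11b is the product of *Itgam*, while the small fragments C3a and C5a act on the receptors encoded by *C3ar1* and *C5ar1*. C1 inhibitor, encoded by *Serping1*, blocks the proteases that C1q activates. In the brain the system is known for its part in the pruning of synapses by microglia, the resident macrophages of the parenchyma.

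The 3 C1q genes lie side by side on the minus strand of chromosome 4 (GRCm38), within 18675 bases that hold no other annotated gene: *C1qb* at chr4:136880129-136886187, *C1qc* at chr4:136889804-136893065 and *C1qa* at chr4:136895917-136898803. *C4b* (chr17:34728380-34743882) and *C3* (chr17:57203970-57228136) share a chromosome, as do *C5ar1* (chr7:16246743-16259540) and *Itgam* (chr7:128062640-128118491, the only member on the plus strand). *Serping1* lies at chr2:84765387-84775444 and *C3ar1* at chr6:122847138-122856161. Of the 50-base stretches of the *C4b* transcript, 35.2% also occur in the neighbouring *C4a* transcript, and 38.1% of those in its last 500 bases do. Reads from such stretches could not be told apart, and their effect on the *C4b* counts was not measured. In the class where it was highest, *C4a* was counted at 3.16 CPM, as the mean of the 2 libraries.

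Promoters from 250 bases before to 50 bases after the start were present in the RefSeq table for 6 of the 9 members (GRCm38.p6). They were searched on both strands for AGGAAGT, a core recognised by ETS factors such as PU.1, the lineage factor of myeloid cells. The 3 that hold it are shown for that reason alone, and *C3ar1* and *Itgam*, also read in microglia-like and macrophage-like cells, lack it. All 3 are on the minus strand of the genome and written along the gene. Capitals mark the match, which in each case lies on the opposite strand (ACTTCCT as printed).
C1qb, chr4:136886151-136886450: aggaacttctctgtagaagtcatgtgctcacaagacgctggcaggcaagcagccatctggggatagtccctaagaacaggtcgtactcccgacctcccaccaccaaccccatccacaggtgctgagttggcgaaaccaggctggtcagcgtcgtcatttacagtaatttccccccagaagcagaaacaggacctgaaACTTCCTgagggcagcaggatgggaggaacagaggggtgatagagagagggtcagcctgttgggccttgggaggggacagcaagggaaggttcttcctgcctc
C1qc, chr4:136892865-136893164: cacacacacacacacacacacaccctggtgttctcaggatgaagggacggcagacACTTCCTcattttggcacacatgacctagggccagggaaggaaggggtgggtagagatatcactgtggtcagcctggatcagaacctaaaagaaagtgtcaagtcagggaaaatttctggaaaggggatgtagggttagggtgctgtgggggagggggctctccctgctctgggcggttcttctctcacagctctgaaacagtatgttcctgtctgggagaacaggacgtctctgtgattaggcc
C5ar1, chr7:16259289-16259588: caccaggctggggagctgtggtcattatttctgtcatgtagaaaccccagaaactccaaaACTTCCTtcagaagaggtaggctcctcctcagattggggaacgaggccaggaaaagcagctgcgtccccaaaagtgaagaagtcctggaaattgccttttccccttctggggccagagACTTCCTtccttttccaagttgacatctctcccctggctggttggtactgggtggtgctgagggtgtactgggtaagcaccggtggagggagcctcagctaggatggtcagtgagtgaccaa

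Counted from the start in the RefSeq table, the match begins 53 bases before it in *C1qb* and 195 bases before it in *C1qc*. *C5ar1* holds 2, at 190 and 72 bases before. These starts differ from the ends of the gene positions given above. By those positions both *C5ar1* matches lie inside the gene, and the *C1qc* match lies closer to its start. The same letters occur in 9.27% of all 32544 promoters of this length. They were not in the windows of *C3*, *C3ar1* and *Itgam*. A MAF-type sequence, TGCTGAC, occurs in 4.65% of all promoters and a sequence of the interferon-response type in 3.45%, and neither was in any of the 6 windows.

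After filtering, 6802 and 5205 cells remained in the 2 libraries, 12007 of 12415 barcodes, and 9 barcodes were shared by the libraries. The libraries held 44597660 and 37982720 UMIs in all, with medians of 3852 and 5375 per barcode. The study's methods state a larger initial number of cells than the barcodes analysed here. Clustering without the complement genes gave 12 clusters and 11 classes, each named by its markers with the ending -like. Microglia-like cells numbered 1117 and 1023, macrophage-like cells 94 and 76, and fibroblast-like cells 35 and 21, so levels in the last class rest on few cells. The macrophage-like cluster also held raised markers of T cells (5 of 5) and of monocytes or neutrophils (6 of 6). In its cells outside the subcluster led by *Lyve1*, *Ccl8* and *Fcna*, 4 of 4 B cell markers were also raised 2-fold over that subcluster. The level of the macrophage-like cluster is therefore also given for the *Lyve1* subcluster alone. Erythroid-like cells (86 and 11) were too few in the second library to be tested. Every level is in CPM, the UMIs of a gene per 1000000 UMIs of its class in 1 library. Since reads were counted at 3' ends, no scaling by length was made, and levels are compared between classes for 1 gene. Fewer UMIs of the gene in the cells that hold it and a smaller share of cells with the transcript both lower a CPM.

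*C1qa*, *C1qb* and *C1qc* were abundant in microglia-like and macrophage-like cells and low in every other class. *C1qa*, the A chain, stood at 10534 CPM in library 1 and 9914 in library 2 in microglia-like cells, and at 7749 and 5730 in macrophage-like cells. *C1qb*, the B chain, stood at 11026 and 10409 CPM in microglia-like and at 7016 and 4890 in macrophage-like cells. *C1qc*, the C chain, stood at 7832 and 7385 CPM against 5756 and 4328. For each chain both microglia-like values were above both macrophage-like values, and both of these were above every value of the 8 other classes tested, which lay between 20.4 and 209 CPM. Together the 3 genes made up 2.94% and 2.77% of all UMIs of microglia-like cells, and 91.1% to 93.3% of the UMIs of each gene came from that class.

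**Figure D1:**
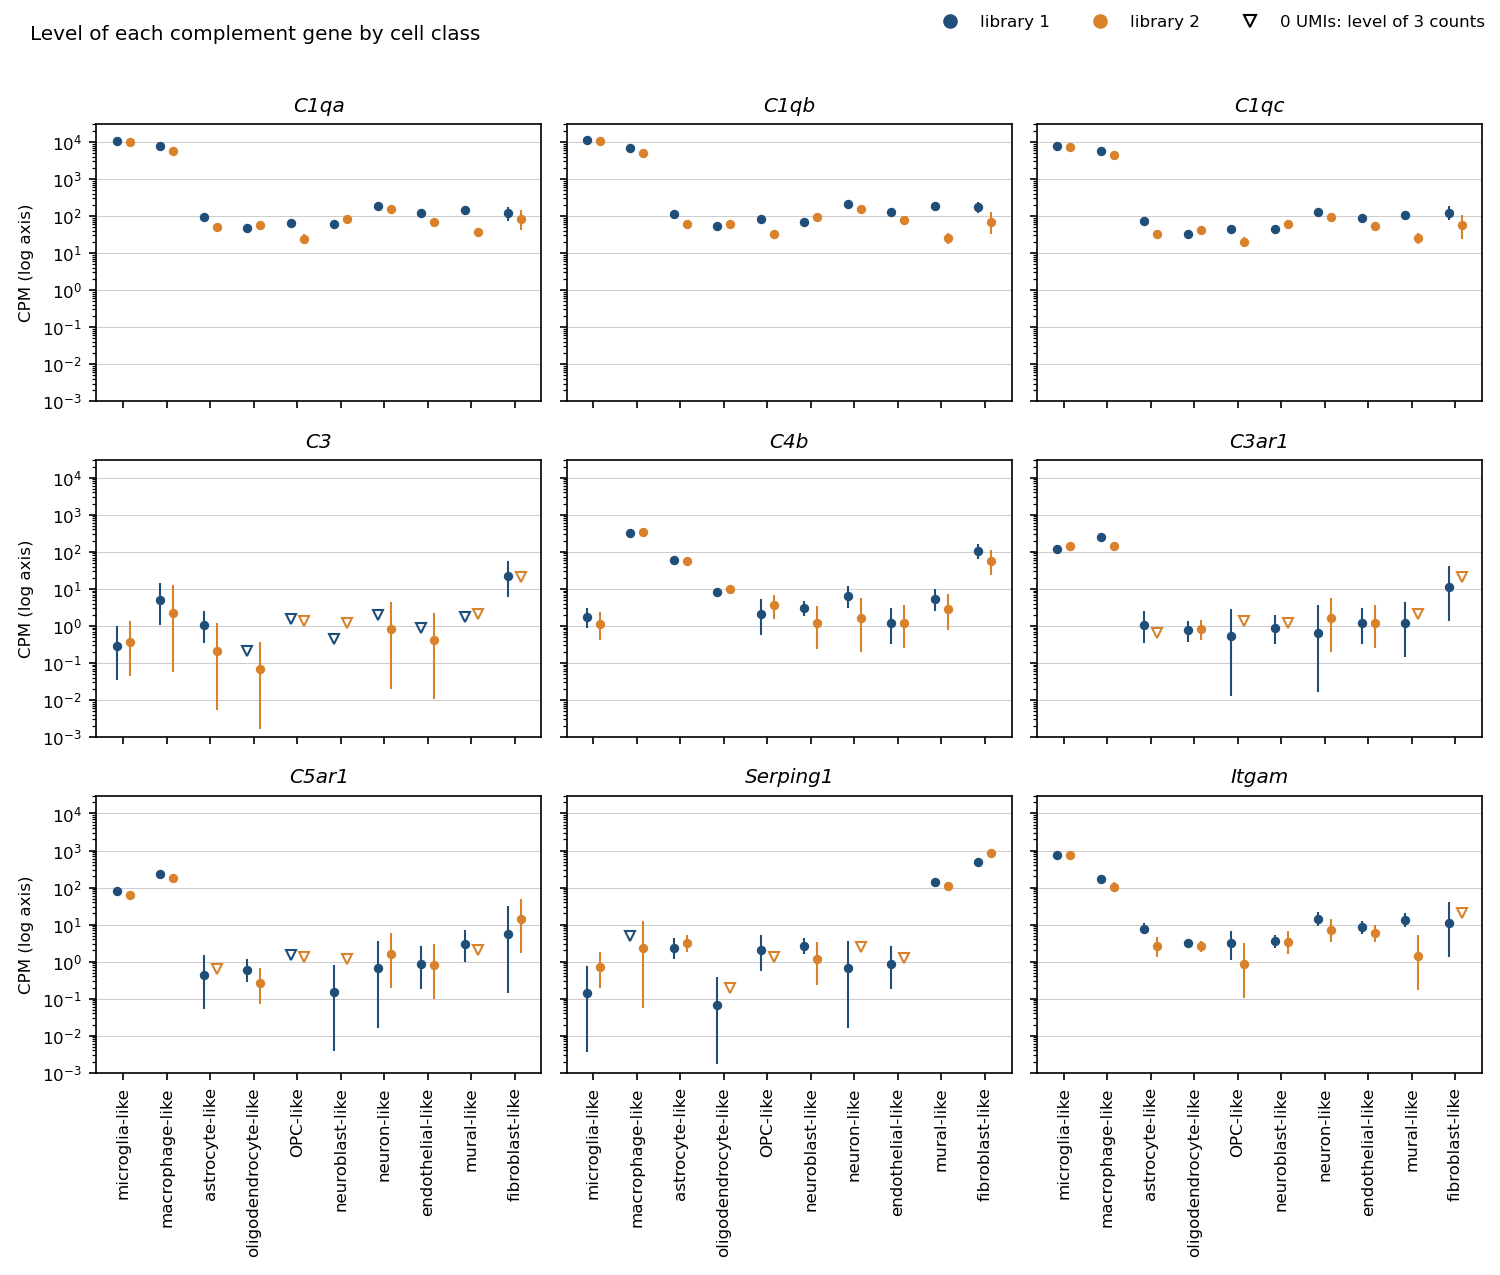
Level of each of the 9 genes in 10 cell classes, in CPM on a log axis, with 1 point per library (blue, library 1; orange, library 2), exact 95% counting intervals as bars, and an open triangle at the level of 3 counts where no UMI was found. The C1q genes and *Itgam* peak in microglia-like cells, *C4b* and *C5ar1* in macrophage-like cells and *Serping1* in fibroblast-like and mural-like cells, while *C3* is near its floor throughout.

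Microglia-like cells were tested against macrophage-like cells, the class most like them. The fold change was 0.85 on the log2 scale for *C1qa* (SE 0.35, adjusted p = 0.0995, edgeR), 1.11 for *C1qb* (SE 0.41, adjusted p = 0.064) and 0.84 for *C1qc* (SE 0.34, adjusted p = 0.0931), so none of the 3 passed the threshold. The median of all 15212 genes in this comparison was 0.26, and relative to it the 3 differences were 0.60, 0.86 and 0.59. In simulated sums the test called 18% of genes raised 2-fold in microglia-like cells, and 86% of those raised 4-fold. The dispersion there was set at 0.05 and not taken from these data, and the classes differed in the raised genes only. These shares therefore do not give the power of the test in these data. A missing call does not show equal levels. Within the *Lyve1* subcluster of macrophage-like cells (48 and 40 cells) *C1qa* reached 9135 and 8252 CPM, and the difference from microglia-like cells was 0.55 (adjusted p = 0.336). Against the other 8 classes tested, each C1q gene was higher in microglia-like cells in 8 of 8 tests, and in macrophage-like cells in 8 of 8. Of all genes, 20.6% to 36.6% were called higher in microglia-like cells than in one of these classes, and 11.9% to 24.95% in macrophage-like cells.

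Nearly every microglia-like cell carried the transcripts. Thinned to 1000 UMIs, all 3 C1q genes were found together in 99.6% of the 1019 cells kept from library 1 and 100% of the 967 from library 2, with medians of 29 and 27 C1q UMIs per cell. Among macrophage-like cells the shares were 89.7% of 87 and 68.9% of 74. Cells with none of the 3 made up 6.90% and 24.3% of the macrophage-like cells at this depth and 0% of the microglia-like cells in both libraries. In the *Ccl5*- and *S100a9*-led remainder of the macrophage-like cluster, *C1qa* was at 4124 and 1490 CPM, below the *Lyve1* subcluster in both libraries.

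The share of microglia-like UMIs held by the 3 genes varied between single cells, from 1.47% at the 5th percentile to 4.11% at the 95th in library 1 and from 1.75% to 3.95% in library 2, around medians of 2.84% and 2.75%. In macrophage-like cells the medians were 1.99% and 1.64%, and the 5th percentile was 0.035% and 0%. In the *Lyve1* subcluster the medians were 2.33% and 2.03% and the 5th percentiles 1.47% and 1.11%, and in the other cells of that cluster the medians were 1.21% and 0.047%. Cells with none of the 3 genes at 1000 UMIs made up 0% and 2.50% of the former and 15.4% and 50% of the latter. The T cell markers summed to 33.3 and 835 CPM in the whole macrophage-like cluster, those of monocytes or neutrophils to 918 and 426 and those of B cells to 260 and 860. In microglia-like cells the B cell markers summed to 222 and 289 CPM. The part of cells with such markers in the cells without C1q was not tested.

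Outside the immune cells the C1q transcripts were present at a low level in every class. *C1qa* in astrocyte-like cells was at 93.5 and 49.3 CPM, and in neuron-like cells, the highest of these classes, at 188 and 151. The 3 genes together reached 0.28% to 1.78% of the microglia-like level in the 8 classes. In the same classes the median of 10 other microglial markers was 0.27% to 1.49% of its microglia-like level, for example 0.91% in astrocyte-like cells of library 1, where the C1q genes were at 0.94%, and 0.48% in library 2, where they were at 0.51%. Mural-like cells went from 1.47% in library 1 to 0.31% in library 2 for the C1q genes and from 1.49% to 0.39% for the markers. Between these 8 classes, *C1qa* was called in 9 of 28 pairs, *C1qb* in 2, *C1qc* in 7 and *Itgam* in 7, where 13.5% to 61.4% of all genes were called in a pair (median 51.3%). Each of the C1q calls had OPC-like cells as the lower or neuron-like cells as the higher class, with a fold change of 2.09 for *C1qa* between neuron-like and OPC-like cells (SE 0.41, adjusted p = 3.4e-04, edgeR). *Itgam* was at 0.11% to 1.90% of its microglia-like level wherever a UMI of it was found in these classes. Free or carried-over RNA as a part of these low levels was not tested.

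**Figure D2:**
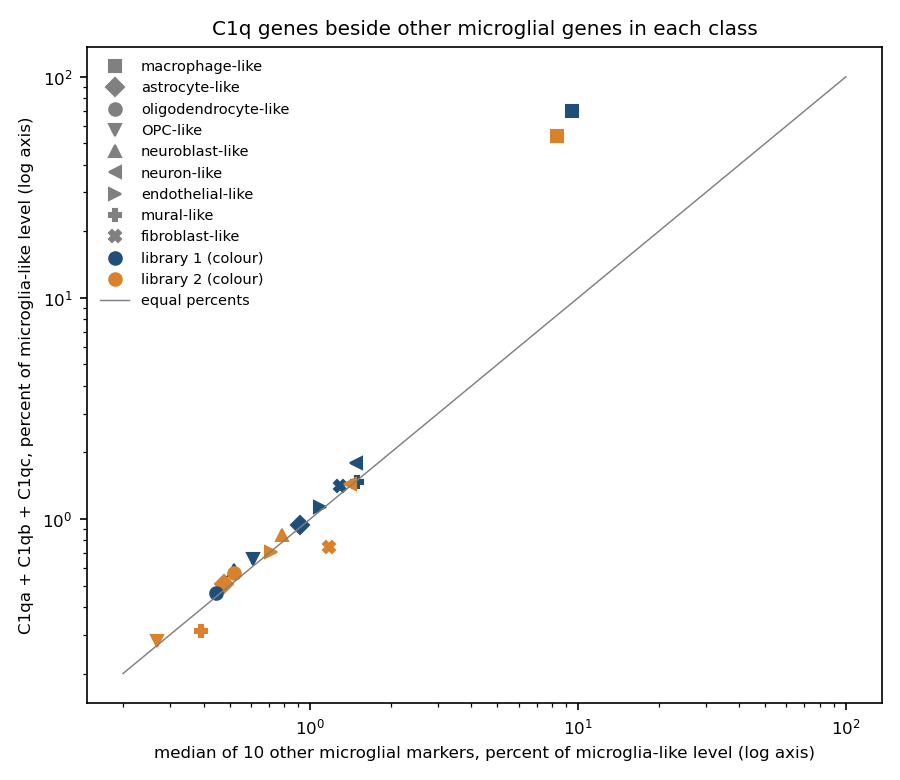
Summed level of *C1qa*, *C1qb* and *C1qc* in each class (y axis) against the median of 10 other microglial markers (x axis), both as percent of the level in microglia-like cells of the same library, on log axes; shapes are classes, colours libraries, and the line marks equal percents. The 8 classes outside the immune cells lie along the line between 0.27% and 1.78%, whereas macrophage-like cells lie above it, at 69.8% and 53.9% for the C1q genes and 9.51% and 8.38% for the markers.

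The counts of *C1qa* relative to *C1qb* were set side by side in the classes with high levels. *C1qa* had 0.955 and 0.953 UMIs per *C1qb* UMI in microglia-like cells of the 2 libraries, and 1.10 and 1.17 in macrophage-like cells. As a share of the UMIs of both genes, *C1qa* took 48.9% (exact 95% interval 48.6 to 49.1) and 48.8% (48.5 to 49.1) in microglia-like cells, and 52.5% (51.4 to 53.5) and 53.9% (52.5 to 55.4) in macrophage-like cells. The intervals of the 2 classes did not overlap in either library, but they cover counting error only, and the ratio was not tested among libraries. In the *Lyve1* subcluster the ratio was 1.13 and 1.22, and in the other cells of that cluster 0.969 and 0.842. Over the 8 classes outside the immune cells and the erythroid-like cells, pooled, it was 0.867 and 0.901.

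**Figure D3:**
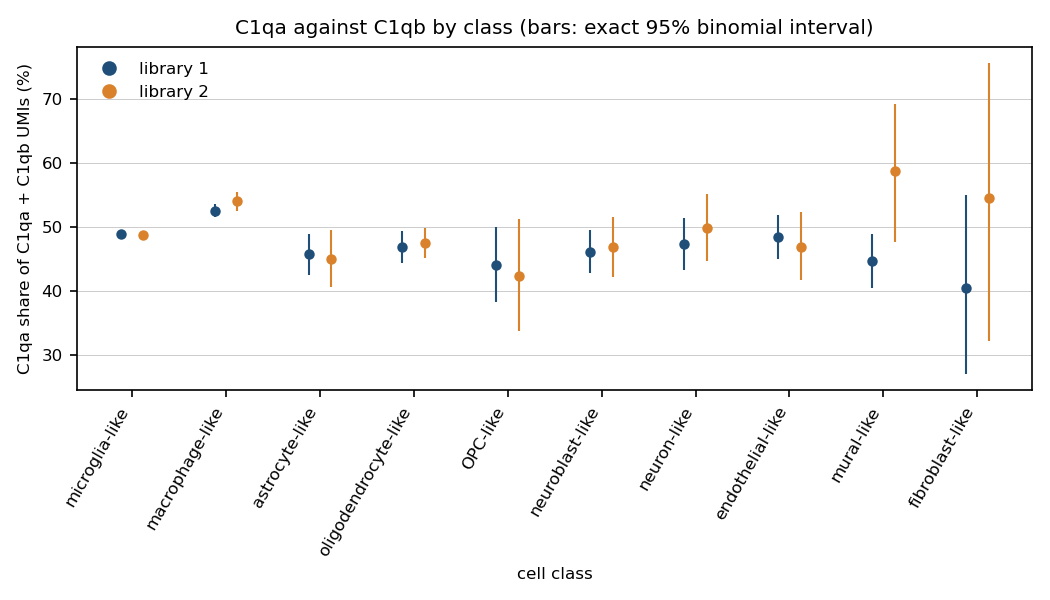
*C1qa* UMIs as percent of *C1qa* plus *C1qb* UMIs in each class and library (y axis), with exact 95% binomial intervals. Macrophage-like cells lie at 52.5% and 53.9%, above microglia-like cells at 48.9% and 48.8%; the other classes have wide intervals from few UMIs.

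*Itgam*, the alpha chain of complement receptor 3, set microglia-like cells apart from macrophage-like cells. It stood at 755 and 777 CPM in microglia-like and at 167 and 107 in macrophage-like cells, and at 14.3 or less elsewhere. Both microglia-like values exceeded both macrophage-like values, and the difference was 2.75 on the log2 scale (SE 0.28, adjusted p = 6.8e-07, edgeR). In the *Lyve1* subcluster *Itgam* was at 166 and 141 CPM. At 1000 UMIs per cell *Itgam* was seen in 51.6% and 53.3% of the microglia-like cells, in 10.3% and 9.46% of macrophage-like cells, and in 0.977% and 0% of astrocyte-like cells, where 0 of 928 allows up to 0.323% with a UMI at this depth. At full depth the astrocyte-like cells of library 2 held 12 *Itgam* UMIs.

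*C5ar1*, the receptor of C5a, had the opposite order. It was at 232 and 186 CPM in macrophage-like and at 80.4 and 62.3 in microglia-like cells, with no overlap, and was lower in microglia-like cells by 1.32 on the log2 scale (fold change -1.32, SE 0.22, adjusted p = 2.7e-04, edgeR). In the *Lyve1* subcluster it reached 304 and 271 CPM, while the other cells of that cluster had 42.2 and 42.6. *C3ar1*, the receptor of C3a, was at 248 and 141 CPM in macrophage-like and at 117 and 142 in microglia-like cells. These values overlapped, and the difference was not called (fold change -0.36, SE 0.27, adjusted p = 0.42). Both receptors were at 13.8 CPM or less in all classes outside the immune cells, where *C3ar1* gave 0 calls among 28 pairs of classes (lowest adjusted p = 0.168, edgeR) and *C5ar1* gave 7 (lowest adjusted p = 0.00743), all of them between classes with 13 UMIs or fewer. Their transcripts were sparse per cell: thinned to 1000 UMIs, 9.72% and 13.03% of the microglia-like cells held *C3ar1*, and 6.08% and 4.03% held *C5ar1*. *C5ar1* was found in 0 of 1024 and 0 of 928 astrocyte-like cells, which allows up to 0.293% and 0.323% with a UMI at this depth and does not limit the share of cells with the transcript.

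*C4b*, the cleaved substrate of the classical pathway, had another distribution than the C1q genes. It was highest in macrophage-like cells, at 323 and 336 CPM, followed by fibroblast-like cells (106 and 55.4), astrocyte-like cells (58.6 and 56.6) and oligodendrocyte-like cells (7.96 and 9.79). Microglia-like cells had 1.69 and 1.10 CPM, from 18 UMIs in all. Macrophage-like cells were above each of the 9 other classes (9 of 9 called, where 6.42% to 24.95% of all genes were higher in them), while the fibroblast-like and astrocyte-like neighbours in the order were not told apart (adjusted p = 0.725). By number of UMIs, astrocyte-like cells were the main source, with 41.1% and 44.5% of all *C4b* UMIs, against 29.3% and 24.96% for the far fewer macrophage-like cells. Between microglia-like and macrophage-like cells the fold change was -7.25 (SE 0.32, adjusted p = 6.3e-12), the largest difference of any member in that comparison. A *C4b* UMI was found in 19.5% and 18.9% of macrophage-like, 5.37% and 7.11% of astrocyte-like and 0.294% and 0.103% of microglia-like cells thinned to 1000 UMIs.

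*Serping1*, the C1 inhibitor gene, was found in fibroblast-like and mural-like cells. Fibroblast-like cells had 492 and 852 CPM and mural-like cells, the pericytes and smooth muscle cells of vessels, 140 and 113. No other class exceeded 3.21 CPM. Fibroblast-like cells were above the 9 other classes (9 of 9, where 4.92% to 14.0% of all genes were higher in them) and mural-like cells above the 8 below them (8 of 8, where 11.1% to 30.5% were). Endothelial-like cells, the neighbours of mural cells in the vessel, had 3 UMIs in all against 396, a ratio of levels of 0.00401 (exact 95% interval 8.2e-04 to 0.0118), and the difference was called (adjusted p = 5.1e-09, edgeR). Mural-like cells gave 65.0% and 52.3% of all *Serping1* UMIs and fibroblast-like cells 24.2% and 40.2%.

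*C3*, the central component on which all pathways converge, was hardly detected. It had 14 UMIs in library 1 and 7 in library 2 over all cells, of which 4 came from fibroblast-like cells of library 1 alone. It was called higher in fibroblast-like cells than in 6 of 9 classes (lowest adjusted p = 0.00519, edgeR, where 4.92% to 14.0% of all genes were), but with 0 UMIs in fibroblast-like cells of library 2 and at most 6 in any other class, no order of its classes was read at this depth. Of its 6 UMIs in astrocyte-like cells, all were in the subcluster led by the ependymal genes *Ccdc153* and *Tmem212*, at 10.4 and 2.37 CPM.

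Between microglia-like and macrophage-like cells, 1 member was higher in microglia-like cells and 2 were lower, against 12.8% and 6.42% of all genes. Between microglia-like and astrocyte-like cells, 6 members were higher and 2 lower, where 32.6% and 29.3% of all genes were called. The 6 were the C1q genes, with fold changes of 7.60 (*C1qa*), 7.42 (*C1qb*) and 7.65 (*C1qc*), together with *Itgam* at 7.52, *C3ar1* at 7.28 (1601 against 5 UMIs) and *C5ar1*, for which 912 UMIs against 2 gave a ratio of levels of 338 (exact 95% interval 93.2 to 2793). *C4b* was lower, at -4.59 (SE 0.32, adjusted p = 1.1e-10), as was *Serping1*, with 5 UMIs against 26 and a ratio of 0.142 (0.0427 to 0.377, adjusted p = 0.0226).

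**Figure D4:**
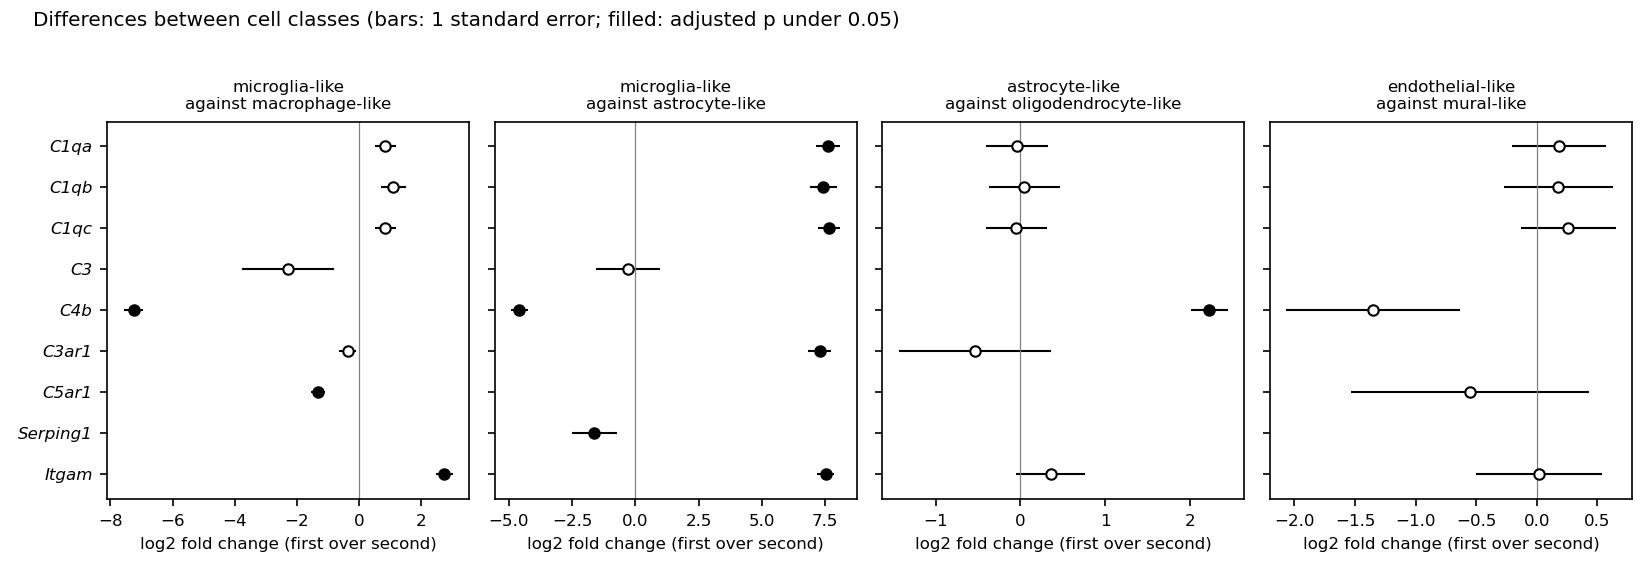
Log2 fold change of each member (x axis) in 4 comparisons of classes, with 1 SE as bars and filled points where the adjusted p was under 0.05; a member with 3 UMIs or fewer in a class is left out. *Itgam* lies at 2.75 and *C4b* at -7.25 in microglia-like against macrophage-like cells, and the C1q genes lie near 0 in astrocyte-like against oligodendrocyte-like and in endothelial-like against mural-like cells.

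Between astrocyte-like and oligodendrocyte-like cells, both macroglial classes, 2 members were higher in astrocyte-like cells and 0 lower, against 27.5% and 31.3% of all genes. *C4b* was higher by 2.23 (SE 0.22, adjusted p = 3.7e-08), and *Serping1* had 26 UMIs against 1, a ratio of 83.0 (13.6 to 3401, adjusted p = 1.9e-04). The fold changes of the C1q genes were -0.04, 0.05 and -0.05 with TMM scaling, and none was called. As levels pooled over the libraries, without that scaling, the ratios were 1.38, 1.48 and 1.39. The order differed between libraries for each of these genes. *C1qa*, for example, was at 93.5 and 49.3 CPM in astrocyte-like and at 48.0 and 55.6 in oligodendrocyte-like cells. Of the 9 members, 1 was called between endothelial-like and mural-like cells, *Serping1*, where 11.1% of all genes were higher in mural-like cells and 13.9% in endothelial-like cells.

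Within classes, subclusters formed without the complement genes were compared. The microglia-like subcluster with high *Ccl3* and *Ccl4* (133 and 77 cells) had 9 of 9 oligodendrocyte, 7 of 10 astrocyte and 5 of 9 neuron markers raised 2-fold over the other microglia-like cells, and 0 of 10 microglial ones. It gave no call among the 6 members that passed the count filter with edgeR or DESeq2, where edgeR called 11.9% of all genes. With edgeR 0 of the 6 had an unadjusted p under 0.05, where 2526 of 10866 genes had. From 6 members alone such a 0 cannot be told from that share. *C1qa* was at 10294 and 12203 CPM in this subcluster and at 10599.9 and 9897 in the largest subcluster. Its cells had a median of 1146.5 UMIs, against 6971 in the largest subcluster, and the part of this depth gap and of the other classes' markers in the comparison was not tested. The astrocyte-like subcluster chosen for the highest *Gfap* was led by the ependymal genes named above (65 and 50 cells) and is called by those genes. *C4b* was lower in it than in the other astrocyte-like cells, at 37.3 and 26.1 CPM (fold change -1.07, SE 0.26, adjusted p = 0.0122), where 13.4% of all genes were lower. This call was lost with DESeq2 (adjusted p = 0.18) and after thinning to 1000 UMIs (adjusted p = 0.477).

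Among the other astrocyte-like subclusters *C4b* was at 116 and 133 CPM in the subcluster led by *Gm26917* and *Col11a2*, against 46.9 and 50.1 in the *Crym*-led subcluster. The small subcluster led by *Igsf1* and *Agt* (13 and 63 cells) had 123 CPM in library 1 but 39.2 in library 2. The cells of the *Gm26917* subcluster had a median mitochondrial share of 12.7% and a median of 1641 UMIs, against 5.63% and 8203 in the *Crym* one, and the part of these in the difference was not tested. *C1qa* stood at 293 and 144 CPM in the subcluster led by *Mal* and *C1qb*, the highest of library 1 and below the ependymal-gene subcluster (147) in library 2. Its leading genes also included *Cldn11* and *Mag* of oligodendrocytes and *Ctss* and *Tyrobp* of microglia.

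In mural-like cells *Serping1* was at 280 and 225 CPM in the subcluster with high *Acta2*, *Tagln* and *Myh11*, genes of smooth muscle, at 69.6 and 82.3 in the *Kcnj8*- and *Vtn*-rich subcluster of pericyte character, and at 44.7 and 22.4 in cells that also carried *Cldn5*, where 9 of 9 endothelial markers were raised. The 2 values of the *Acta2* subcluster were above all others. The fold change against the other mural-like cells was 2.52 (SE 0.19, adjusted p = 6.0e-42, edgeR), where 18.4% of all genes were higher. Sums per side and library leave little spread to estimate, so this p-value draws on the spread of other genes. The other mural-like cells included a subcluster with 9 of 9 oligodendrocyte, 8 of 9 neuron and 7 of 10 astrocyte markers raised, whose part in the difference was not tested. The fold change was 1.13 with doublets kept and 1.18 with the complement genes used for clustering. In these settings no fibroblast-like cluster formed, and 7 of 7 fibroblast markers were raised in the mural-like cluster.

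**Figure D5:**
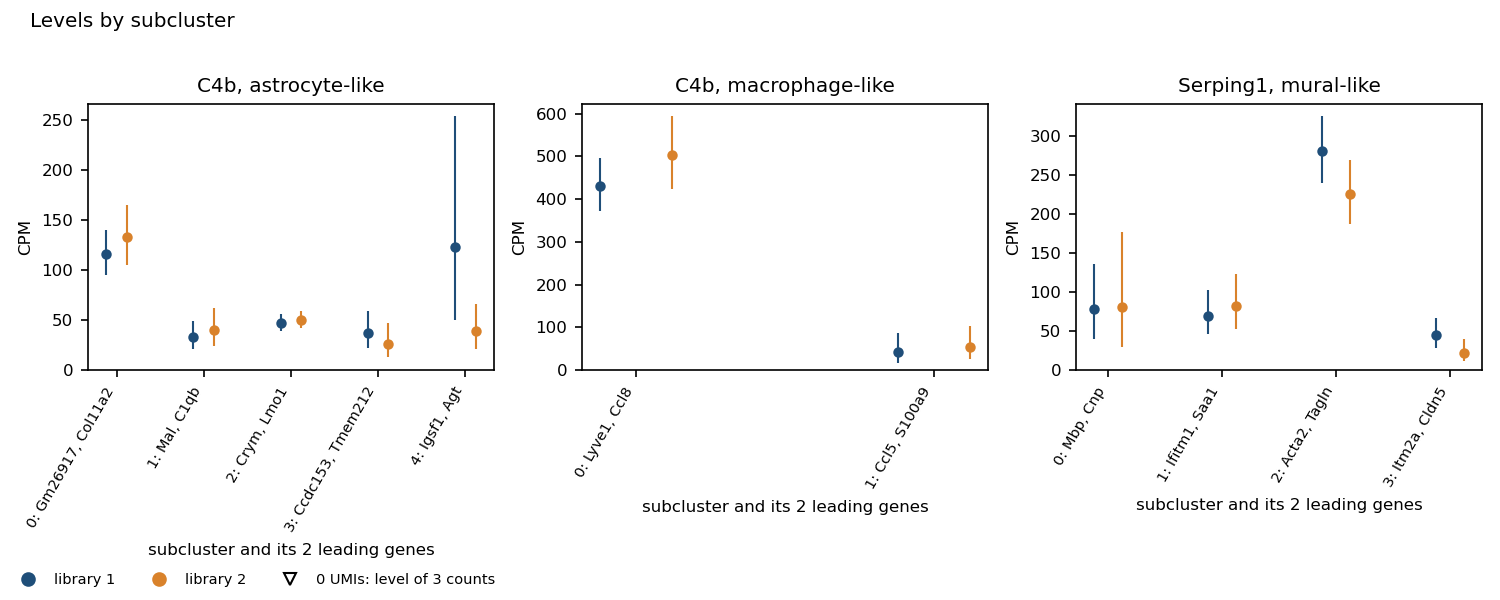
Level of *C4b* in the subclusters of astrocyte-like and macrophage-like cells and of *Serping1* in those of mural-like cells, in CPM from 0, with 1 point per library and exact 95% counting intervals. *C4b* lies at 431 and 503 in the *Lyve1* subcluster of macrophage-like cells and at 42.2 and 54.7 in the other, and *Serping1* is highest in the *Acta2* subcluster of mural-like cells.

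The genes whose profiles were most like each member were found over the 20 class sums (10 classes in 2 libraries, which share depth and cells), as Pearson's r of log2(CPM + 10) among 14476 genes. The C1q genes were closest to *Fcer1g*, *Fcrls* and *Tyrobp* (r = 0.992 to 0.997), *Itgam* to *P2ry13* and *Trem2* (0.992 and 0.989), *C3ar1* to *Ccl6*, *Gpr183* and *Arl11* (0.987 to 0.992) and *C5ar1* to *Fcgr2b*, *Igsf6* and *Epsti1* (0.988 to 0.994). *Serping1* was closest to *Cped1*, *Tbx18* and *Pcolce* (0.992 to 0.996). No gene followed *C4b* as closely, the nearest being *Apoe* (0.869), *Lgals3* (0.865) and *Igf1* (0.840). For *C3* the counts were too few for such a list.

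A wider list of 43 complement genes gave the surroundings of the members. All 43 were in the table, 26 reached 10 CPM in a class and 28 passed the count filter. Of the starters of the classical pathway, the proteases *C1s1* and *C1ra* were at 56.4 and 67.0 CPM and at 23.7 and 16.9 CPM in mural-like cells, which also held their inhibitor *Serping1*, and *C1ra* was at 33.5 and 13.8 CPM in fibroblast-like cells from 6 and 2 UMIs. In macrophage-like cells *C2*, the protease that joins C4, was at 36.7 and 18.1 CPM, beside *C4b*. *C1s1*, *C1ra* and *C1rl* were higher in mural-like than in endothelial-like cells (3 of the 4 tested, against 11.1% of all genes; *C1s1* fold change -5.39, SE 0.55, adjusted p = 4.3e-07). In the alternative pathway *Cfp*, properdin, was at 112 and 97.5 CPM in macrophage-like cells, and *Cfb* and *Cfd* stayed under 10 CPM in every class. *Hc*, the gene of C5, was only listed with that pathway and also stayed under 10 CPM in every class.

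Of the lectin pathway, *Fcna* (133 and 99.8 CPM) was found in macrophage-like cells, *Colec12* in fibroblast-like (631 and 1205) and mural-like cells (239 and 251), and *Masp1* in OPC-like cells, the oligodendrocyte precursors (77.0 and 76.2). *Colec12* was not confined to these classes, and was lower in microglia-like than in macrophage-like cells (fold change -6.27, SE 0.47, adjusted p = 4.9e-09, edgeR). The terminal components were at 10 CPM or less throughout, with *C6* at 8.33 and 9.07 CPM in macrophage-like cells, *C8g* at 2.15 and 4.07 in astrocyte-like cells and *C8a* at 1 UMI.

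Soluble regulators were abundant in separate classes: *Vtn*, vitronectin, in mural-like cells (9812 and 9924 CPM) and *Clu*, clusterin, in astrocyte-like cells (6049.5 and 5779.8). Of the membrane regulators *Cd59a* and *Cr1l* were highest in endothelial-like cells (369 and 204 CPM, 182 and 177), and *Csmd1* in OPC-like cells (184 and 195). *Itgb2*, the beta chain that pairs with the *Itgam* product, stood at 209 and 230 CPM in microglia-like and at 83.3 and 93.0 in macrophage-like cells, higher in the former by 1.54 (SE 0.24, adjusted p = 9.3e-05).

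Over the whole list, 6 of 28 tested genes were higher and 6 lower in microglia-like than in macrophage-like cells, against 12.8% and 6.42% of all genes, with a median fold change of -0.30 beside 0.26 for all genes. Against astrocyte-like cells 10 were higher and 13 lower in microglia-like cells (32.6% and 29.3% of all genes; median -0.78 beside 0.01). Between astrocyte-like and oligodendrocyte-like cells 10 were higher and 7 lower (27.5% and 31.3% of all genes; median 0.52 beside -0.03), and between endothelial-like and mural-like cells 5 were higher and 7 lower (13.9% and 11.1% of all genes; median 0.004 beside 0.15).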

How the data were processed

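Cells of the adult mouse striatum were measured in 2 libraries by droplet single-cell RNA sequencing. The deposited files hold raw UMI counts per gene and barcode, which the authors made by aligning reads to mm10 with Cell Ranger (4.0.0 in the matrix headers, 4.0 in the submitters' processing notes, another version in the study's methods); barcodes called as cells were kept and the libraries were not pooled. Kits v2 and v3 are both named, with no assignment to a library.

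Cells with at least 300 detected genes were kept, as were genes found in more than 3 cells, and doublets were removed with Scrublet (scanpy 1.11.5, 6% of cells expected). The libraries were integrated by canonical correlation analysis in Seurat 5.3.0 (2000 variable genes, 30 components, resolution 0.08). The 9 genes and 43 further complement genes took no part in the clustering. A cluster was named when at least 3 markers of a fixed list were 2-fold higher than in the other cells, with 10 CPM added, and at least 1 stood among its 50 leading genes; these thresholds were chosen after counts had been examined. The members, the lists and the rules were chosen with earlier results of these data known. All 9 members were named, with up to 3 genes per role of the wider list by highest level, and the 3 genes of most similar profile; 2 genes that these rules name are not reported here.

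UMI counts were summed per library and class, and the 10 of 11 classes that held 20 or more cells per library were tested with edgeR 4.0.16 (quasi-likelihood test, TMM scaling, low-count filter, prior count 2, library as a block, R 4.3.3) and p-values were adjusted over the 15212 genes that passed the filter (Benjamini-Hochberg, threshold 0.05). The standard error is the size of the fold change without the prior count, divided by the square root of F. The printed fold changes include the prior count, so the 2 differ most at low counts. The same library gives all classes, so libraries pair the class sums by construction. CPM are UMIs of a gene per 1000000 UMIs of its class in a library. Intervals are exact at 95% and cover counting error only; a count of 0 allows up to 3 counts. Cells were thinned to 1000 UMIs for shares of cells with a UMI. The fit was tested on simulated data (dispersion 0.05) for microglia-like against macrophage-like cells. It called 18% of 2-fold and 86% of 4-fold changes, with 4 false calls, so most 2-fold differences were missed in the simulation. The dispersion was set and not estimated from these data, and all classes had the same profile apart from the raised genes. The power and the false calls in these data, where classes differ in many genes, were not measured. DESeq2 1.42.0 and further settings served as alternatives. Promoter sequences came from RefSeq (GRCm38.p6) and positions from a GENCODE annotation of GRCm38. The libraries are the replicates, and no label says whether they came from separate animals, so the p-values measure the spread between these 2 libraries, which may be technical. The 10 classes share 1 estimate of this spread per gene, which also draws on other genes. A p-value for a pair of classes is therefore not the spread of that pair alone.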

Additional observations from a re-analysis of the deposited data

How the results depend on the processing

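The calls of *Itgam*, *C5ar1* and *C4b* between microglia-like and macrophage-like cells, of *C4b* between astrocyte-like and oligodendrocyte-like cells and of *Serping1* between endothelial-like and mural-like cells kept direction and threshold under every alternative tried. For microglia-like against macrophage-like cells the 1 member called higher became 4 without the count filter, 4 after thinning to 1000 UMIs and 2 with doublets kept. Over all genes, 2811 of 23620, 1144 of 10755 and 3231 of 15376 were called in these settings, in either direction. The additions were C1q genes, so the C1q difference between these classes depends on the processing. Restricting the macrophage-like class to its *Lyve1* subcluster, an alternative chosen after seeing the data, changed no call of a member in that comparison. After thinning, 1 member instead of 2 was lower in microglia-like than in astrocyte-like cells. For astrocyte-like over oligodendrocyte-like cells 1 instead of 2 was higher, and *Serping1* lost its call there. With doublets kept, 2 members were lower in astrocyte-like than in oligodendrocyte-like cells, and 3 were higher and 2 lower in endothelial-like than in mural-like cells. In the latter comparison 2 were lower without the count filter and with the complement genes used for clustering. The *Gfap* subcluster had 0 members lower with DESeq2 and 0 after thinning. With the complement genes used for clustering the rule picked other cells (551 and 209, led by *Mal*, *Hbb-bs* and *C1qb*). There 4 members were higher, with *C1qb* at 2.61, as were 4 in the *Acta2* subcluster. Members helped form both, so neither count is a test. With doublets kept the *Acta2* one had 2 lower, with *C1qb* at -0.59 and *C1qa* at -0.49. In both settings no fibroblast-like cluster formed and the mural-like cluster (553 and 569 cells against 498) had 7 of 7 fibroblast markers raised. The causes of the changes listed here were not tested. Single genes gave 573 results counted as unchanged, 4 weaker, 21 stronger and 3 reversed. The unchanged ones include untested single-library values that did not reverse a called gene, and changes of sign where neither setting gave a call.

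Shares of cells rose with depth. Unthinned, *C1qb* and *C1qc* were found in 99.7% and 99.3% of microglia-like cells, *Itgam* in 85.1%, *C3ar1* in 41.2% and *C5ar1* in 27.6%, *C4b* in 35.3% of macrophage-like and 15.8% of astrocyte-like cells, and *Serping1* in 31.5% of mural-like cells. At 2000 UMIs the last 6 shares were 73.5%, 20.5%, 12.9%, 27.2%, 10.9% and 19.0%, and *Serping1* was at 13.2% with doublets kept.

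Each library holds every class, so the main fit had the replicate block. With no replicate block the members called higher in the 4 comparisons of classes stayed at 1, 6, 2 and 0 and those called lower at 2, 2, 0 and 1, while calls over all genes in the *Ccl3* and *Ccl4* subcluster went from 1295 to 742. Calls over all genes went to 1144, 5385, 4406 and 2092 in the 4 comparisons of classes after thinning, from 2926, 9417, 8932 and 3796, and to 683, 765 and 731 in the *Ccl3*, *Gfap* and *Acta2* subclusters. With DESeq2 these 3 gave 454, 1570 and 1288 calls, from 1295, 3330 and 3318, while with cells under 20% mitochondrial UMIs the rule picked other microglia-like cells (299 and 188, led by *Ccl5*), with 663 calls. The share of calls higher in microglia-like than in macrophage-like cells was 66.6% with TMM, 47.9% with library sizes alone and 36.7% with DESeq2, with medians of 0.26, 0.08 and -0.07. The shares were 52.7%, 37.8% and 43.3% against astrocyte-like cells, and 46.8%, 66.0% and 59.5% for astrocyte-like against oligodendrocyte-like cells. In the *Ccl3*, *Gfap* and *Acta2* subclusters they were 37.3%, 52.4% and 48.6% with TMM, 51.2%, 64.8% and 28.6% with library sizes alone and 26.9%, 58.7% and 54.0% with DESeq2. Without either library the fold change of *Itgam* ranged from 2.43 to 3.09, of *C5ar1* from -1.34 to -1.27, of *C1qa* from 0.69 to 1.02 and of *C4b* in the *Gfap* subcluster from -1.45 to -0.95; such single-library values have no test.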

Other observations

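Erythroid-like cells, which entered no test, held *C1qa* at 60.1 and 27.2 CPM (43 and 2 UMIs) and *C1qb* at 60.1 and 13.6 CPM. *C3*, *C5ar1* and *Serping1* had 0 UMIs there in both libraries. A microglia-like subcluster of 7 and 11 cells led by the interferon-response genes *Ifit3*, *Ifi27l2a* and *Isg15* had *C1qa* at 11112 and 10259 CPM and *Itgam* at 1158 and 536, and was too small for a test. Cells with at least 2000 UMIs were thinned to 2000 to see both receptors together. Among microglia-like cells *C5ar1* was then found in 15.6% and 14.3% of those with a *C3ar1* UMI and in 14.4% and 10.2% of those without. In macrophage-like cells the shares were 32.1% and 40.0% (9 of 28 and 4 of 10 cells with *C3ar1*) against 15.6% and 16.1%. The *Lyve1* subcluster and the other cells of that cluster, which differ in *C5ar1*, were pooled here. The part of this mixture in the shares was not tested.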
